A study of Homo sapiens with 17 samples.

Results

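Transmitter release was followed through 40 genes of its presynaptic machinery, taken by name from the 60199 gene symbols of the RNA count table and looked up in the peak lists of 2 histone marks. They encode SNARE proteins, synaptotagmins, complexins, priming factors, active zone scaffolds, RAB3 GTPases, synaptic vesicle proteins, proteins of vesicle retrieval and neurexins. All 40 were among the 18614 genes with enough counts to be tested. The cells were neurons at day 40 from H9, an established line of human embryonic stem cells, either UTX-/- or wild type (WT). RNA was sequenced from 3 libraries of knockout line KO1, 2 libraries of knockout line KO2 and 3 WT libraries, and ChIP for H3K27me3 and for H3K36me3 was done once per line. UTX (gene symbol KDM6A) is a demethylase of H3K27me3, the mark of Polycomb-repressed chromatin, whereas H3K36me3 marks the bodies of transcribed genes.

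The 3 lines shared the H9 background and passage P40, and the labels give neither how UTX was edited nor whether each KO line was 1 clone. All were differentiated through embryoid bodies, rosettes and neurospheres, and all were then cultured with 10 ng/ml BDNF, 10 ng/ml GDNF, 1 mM dibutyryl cAMP and 200 nM ascorbic acid. Whether libraries of 1 line were differentiated separately is not in the labels, and the spread behind each p-value may therefore be technical.

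At a synapse, an arriving action potential opens calcium channels at the active zone, a protein scaffold that holds docked vesicles beside those channels. SNARE proteins of the vesicle and of the plasma membrane zip together, UNC13 proteins prime this assembly, complexins hold it, and calcium binding to synaptotagmin lets the membranes fuse. The vesicle membrane is then retrieved by clathrin adaptors and dynamin and refilled, while neurexins bind partners across the cleft.

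The promoters of 6 members are shown, 5 for the H3K27me3 peaks near their start sites and 1 for its motifs. The 250 bases before a RefSeq start site (GRCh38.p14) are written 5' to 3' on the strand of the gene. In the first 5, capitals mark CpG dinucleotides, the sequence in which Polycomb target promoters are often rich. CPLX2, SYT3 and NRXN3 had an H3K27me3 peak near a start site only in the KO list, and SYT6 and UNC13A had longer peaks in the KO list than in the WT list. CPLX2 lies at chr5:175796283-175796532 (+), SYT3 at chr19:50637946-50638195 (-), NRXN3 at chr14:79279130-79279379 (+), SYT6 at chr1:114152923-114153172 (-) and UNC13A at chr19:17688355-17688604 (-). SYN1 at chrX:47619858-47620107 (-) is shown for its motifs, and its capitals mark an RE1 element, the binding sequence of the neuronal repressor REST, followed by the cAMP response element TGACGTCA.
CPLX2: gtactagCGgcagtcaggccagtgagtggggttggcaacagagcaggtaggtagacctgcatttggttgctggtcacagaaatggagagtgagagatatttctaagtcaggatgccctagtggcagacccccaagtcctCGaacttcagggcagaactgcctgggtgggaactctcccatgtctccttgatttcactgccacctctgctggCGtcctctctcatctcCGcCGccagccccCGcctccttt
SYT3: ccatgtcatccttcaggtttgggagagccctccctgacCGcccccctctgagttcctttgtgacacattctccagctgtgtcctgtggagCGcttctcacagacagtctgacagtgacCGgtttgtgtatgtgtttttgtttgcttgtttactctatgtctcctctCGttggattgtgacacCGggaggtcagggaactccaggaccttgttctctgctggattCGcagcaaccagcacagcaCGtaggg
NRXN3: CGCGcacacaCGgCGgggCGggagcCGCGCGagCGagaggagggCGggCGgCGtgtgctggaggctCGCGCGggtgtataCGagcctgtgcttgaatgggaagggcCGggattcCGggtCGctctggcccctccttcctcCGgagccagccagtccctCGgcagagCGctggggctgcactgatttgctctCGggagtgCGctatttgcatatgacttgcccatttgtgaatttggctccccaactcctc
SYT6: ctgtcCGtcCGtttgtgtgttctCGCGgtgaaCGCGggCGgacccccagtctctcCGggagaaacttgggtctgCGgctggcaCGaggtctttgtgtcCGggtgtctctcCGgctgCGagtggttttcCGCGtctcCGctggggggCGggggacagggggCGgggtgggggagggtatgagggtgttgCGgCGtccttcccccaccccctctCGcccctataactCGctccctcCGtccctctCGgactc
UNC13A: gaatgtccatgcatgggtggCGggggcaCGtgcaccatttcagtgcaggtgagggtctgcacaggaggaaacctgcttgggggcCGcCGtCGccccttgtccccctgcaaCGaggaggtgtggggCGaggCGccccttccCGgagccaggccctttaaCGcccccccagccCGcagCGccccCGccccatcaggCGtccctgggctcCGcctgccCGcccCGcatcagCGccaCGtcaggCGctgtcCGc
SYN1: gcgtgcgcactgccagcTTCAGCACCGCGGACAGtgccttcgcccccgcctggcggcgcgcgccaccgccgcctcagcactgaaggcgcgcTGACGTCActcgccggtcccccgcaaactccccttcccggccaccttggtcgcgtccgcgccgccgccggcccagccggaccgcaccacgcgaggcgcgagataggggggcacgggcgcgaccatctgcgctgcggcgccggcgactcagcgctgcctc

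The CPLX2 window held 6 CpGs and the SYT3 window 7, against 24 in NRXN3, 24 in SYT6, 21 in UNC13A and 41 in SYN1. At least 41 CpGs were found in 1.73% of the 35116 promoter windows of the table, which have a median of 11. RefSeq start sites were matched for 34 of the 40 members, with 54 windows and a median of 22 CpGs. TGACGTCA, which reads the same on both strands, lay in 1 of these 54 windows, that of SYN1 at positions -159 to -152 from the start site, and in 1.65% of all windows. The RE1 search, on both strands, matched 1 member window, SYN1 at -233 to -217, and 0.057% of all windows, and the motifs do not overlap. For SNAP25, SYT7, SYN3, CPLX1, RIMS2 and NRXN2, either end of the RefSeq gene span was used in place of a start site.

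Library totals ran from 17.4 to 31.5 M estimated counts (M for mega). UTX itself was at 25.9 to 40.8 counts per M (CPM) in KO and 35.2 to 36 CPM in WT. A whole-gene count does not detect a small edit, so these levels do not check the labels. The 12 neuron markers, such as MAP2 and TUBB3, were detected in every library and summed to 4775, 1029 and 5694 CPM in KO1, 3138 and 2031 CPM in KO2, and 4382, 6684 and 4577 CPM in WT. The 15 markers of mesenchymal cells and fibroblasts summed to 68030 CPM in KO1 replicate 2 and to 26620 and 39320 CPM in KO2 replicates 1 and 2, against 1310 and 1055 CPM in KO1 replicates 1 and 3 and 150.9 to 1916 CPM in WT. None of these 15 markers was at 0 in any library. KO1 replicates 1 and 3 were above every WT library for 3 of the 15: TAGLN had 312 and 51 CPM there and at most 19.1 CPM in WT, ACTA2 151 and 25.8 CPM and at most 19.5 CPM in WT, and FBN1 70.9 and 49.2 CPM and at most 45 CPM in WT. The progenitor markers SOX3, PAX6, DLL1, NOTCH1 and MKI67, 5 of 10 on that list, were below WT in every KO library, and the mean log2 CPM of the 10 was 7.93, 5.31 and 8.08 in KO1, 5.76 and 7.2 in KO2, and 8.06, 8.18 and 8.48 in WT. VIM, on the same list, had 2400, 5120 and 1960 CPM in KO1, 2570 and 4760 CPM in KO2, and at most 2400 CPM in WT. NES had 1030, 186 and 889 CPM in KO1, 373 and 464 CPM in KO2, and 742 to 797 CPM in WT. SOX1 had 152, 7.02 and 94.4 CPM in KO1, 27.3 and 50.5 CPM in KO2, and 75.2 to 140 CPM in WT. Summed, the 10 had 5034, 5664 and 4618 CPM in KO1 and 3462 and 6153 CPM in KO2. Their sums in WT were 5297, 4640 and 5261 CPM, and VIM makes up a large part of all these sums. The 3 high-collagen KO libraries, named so after their COL1A1 level (9230 to 27500 CPM, against at most 387 CPM elsewhere), are left out as a second reading of each main result, which leaves KO1 replicates 1 and 3 and no KO2 library. The part of these other cell types in the results was not tested, and in bulk RNA fewer neurons and less RNA per neuron cannot be told apart.

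**Figure D1:**
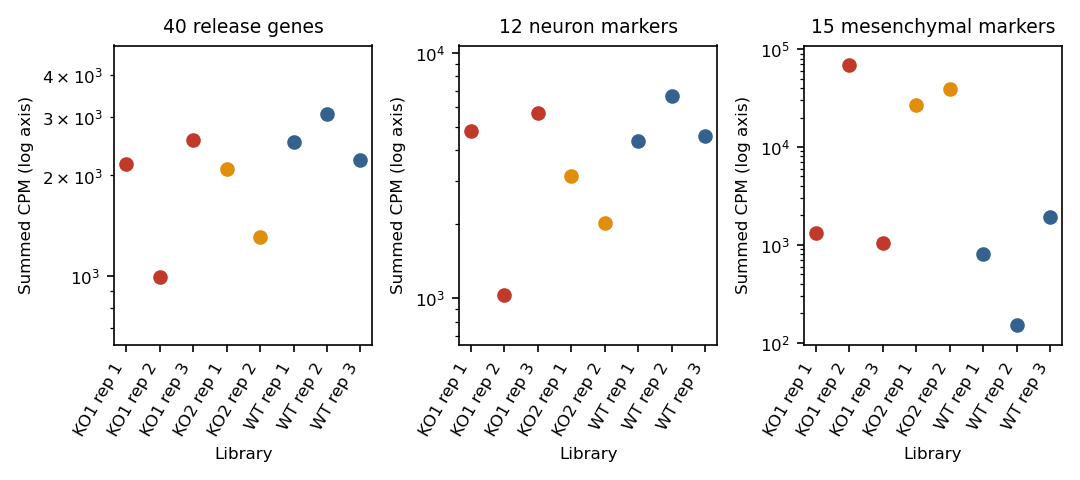
Summed CPM (log axes) per library of the 40 release genes, the 12 neuron markers and the 15 mesenchymal markers, with KO1 in red, KO2 in orange and WT in blue. The release genes are lowest in KO1 replicate 2 (991.6 CPM) and KO2 replicate 2 (1309 CPM), which also have the lowest neuron markers and the highest mesenchymal markers.

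The 40 release genes together summed to 2170, 991.6 and 2556 CPM in KO1, 2092 and 1309 CPM in KO2, and 2525, 3065 and 2219 CPM in WT. KO1 replicate 2 was the lowest of the 8 libraries for 29 of the 40 genes and WT replicate 2 the highest for 19. Of the 40 genes, 33 were below the lowest WT value and 1 above the highest in KO1 replicate 2 (41.4% and 36.6% of all genes), and 35 and 1 in KO2 replicate 2 (36.8% and 32.6%). In KO2 replicate 1 they numbered 18 below and 6 above (37.1% and 36.8% of all genes), in KO1 replicate 1, 11 and 3 (25.8% and 27.1%), and in KO1 replicate 3, 6 and 8 (23.2% and 25.1%). Set against the WT mean on the log2 scale, the median gene of the 40 was at -1.66 in KO1 replicate 2, where the median neuron marker was at -2.44, and at -0.96 in KO2 replicate 2, where the neuron markers were at -1.53. In KO2 replicate 1 the release genes were at -0.28, close to WT replicate 3 at -0.22, while the neuron markers were at -0.72 there and -0.11 in WT replicate 3. Both medians sat near the WT mean in KO1 replicate 3, at 0.01 for the release genes and 0.08 for the neuron markers. KO1 replicate 1 was at -0.14 for the release genes and 0.02 for the neuron markers.

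**Figure D2:**
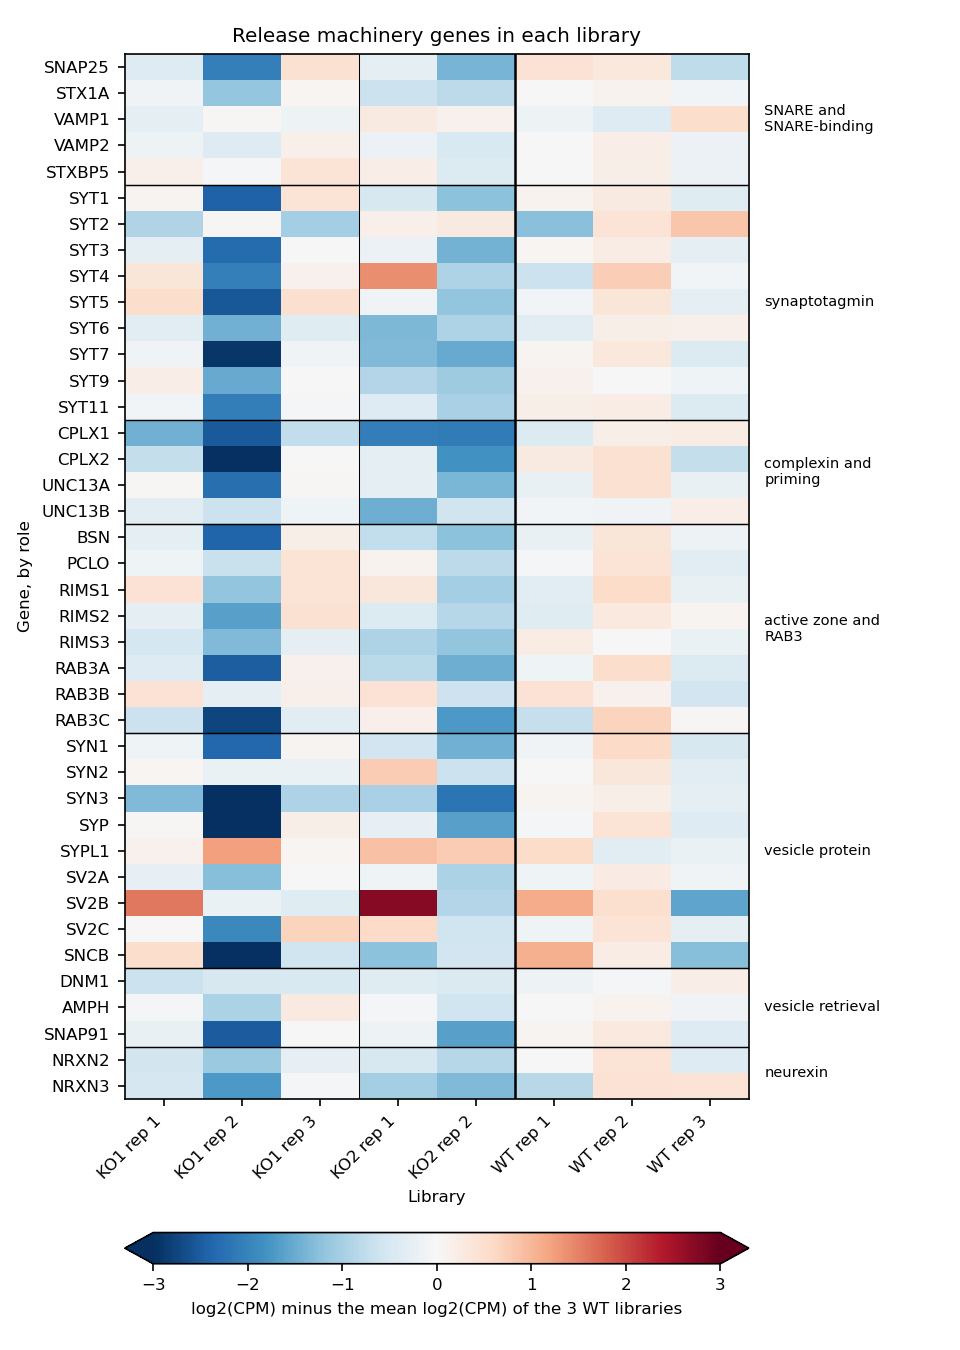
log2(CPM) of each of the 40 genes in each library minus its mean over the 3 WT libraries, ordered by role, with KO1 and KO2 libraries left of WT; colours are limited to -3 and 3. KO1 replicate 2 and KO2 replicate 2 are blue for most genes. DNM1, CPLX1, SYN3, SYT6, RIMS3 and UNC13B, among others, are below the WT mean in all 5 KO columns.

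Across all 5 KO libraries, 34 of the 40 genes had a negative log2 fold change against WT (85%, against 50.6% of all genes tested), with a median of -0.54 (all genes -0.01). Without KO1 replicate 2 alone this median was -0.345, and over all single libraries left out it ran from -0.729 to -0.345. None passed edgeR's quasi-likelihood test at a false discovery rate (FDR) under 0.05, where 0% of all genes passed. At an unadjusted p under 0.05, 6 members were lower and 0 higher, or 15% and 0%, beside 6.45% lower and 11.5% higher over all genes. DESeq2, the authors' tool, called 3 members lower (CPLX1, SYN3 and DNM1) and 0 higher, where it called 1.24% of all genes lower and 5.23% higher. With a library left out, DESeq2 called other numbers of members lower, as of all genes: 0 without WT replicate 2 (0.531% of all genes lower) or without WT replicate 3 (0.321%), CPLX1 alone without KO2 replicate 2 (0.52%), SYN3 and CPLX1 without KO1 replicate 2 (0.784%), CPLX1 and DNM1 without WT replicate 1 (0.584%), and 7 without KO1 replicate 3 (4.37%). It called 4 without KO1 replicate 1 (adding SYT6, 1.84% of all genes lower) and the same 3 without KO2 replicate 1 (0.855%). All 5 KO libraries lay below all 3 WT libraries for SYT6, SYN3, CPLX1, UNC13B, RIMS3 and DNM1, 6 of 40 or 15%, against 6.16% of all genes. No member lay above in all 5, against 6.29% of all genes.

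Complexins and priming factors were negative in 4 of 4 cases, with a median log2 fold change of -0.75. CPLX1, a complexin that binds the assembled SNARE complex, had 7.63, 3.59 and 12.3 CPM in KO1, 4.88 and 4.86 CPM in KO2, and 15.6, 23.5 and 24.0 CPM in WT. Every KO library was below every WT library, and both KO2 libraries were under 5 CPM. It averaged 6.65 ± 3.48 CPM in KO (SD, n = 5) and 21.0 ± 4.71 CPM in WT (SD, n = 3), a log2 fold change of -1.65 by the authors' deposited table (SE 0.42, adjusted p 0.00517), with an edgeR FDR of 0.243. CPLX2, the second complexin of forebrain neurons, had 78.6, 10.3 and 129 CPM in KO1, 106 and 36.9 CPM in KO2, and 156, 177 and 78.9 CPM in WT. Its groups overlapped, and its 17.1-fold range over the 8 libraries was set by KO1 replicate 2 at the low end (log2 fold change -0.93, edgeR FDR 0.451). UNC13A, the main priming factor of excitatory synapses, had 74.9, 15.3 and 74.9 CPM in KO1, 60.6 and 28.2 CPM in KO2, and 62.4, 100 and 62.4 CPM in WT. KO1 replicates 1 and 3 thus lay inside the WT range (log2 fold change -0.56, edgeR FDR 0.528). Its paralog UNC13B had 92.0, 74.4 and 106 CPM in KO1, 42.0 and 76.9 CPM in KO2, and 110, 108 and 133 CPM in WT. The KO libraries were all lower, by a narrow gap of 106 against 108 CPM (log2 fold change -0.58, edgeR FDR 0.289). In KO1 replicates 1 and 3 alone, the log2 fold changes were -1.07 for CPLX1, -0.40 for CPLX2, -0.235 for UNC13B and -0.002 for UNC13A.

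Among the SNAREs, 4 of 5 genes were negative, with a median log2 fold change of -0.20. SNAP25, the plasma membrane SNARE cut by botulinum toxin A, had 47.6, 14.9 and 85.3 CPM in KO1, 50.3 and 23.5 CPM in KO2, and 84.3, 77.5 and 36.5 CPM in WT. KO1 replicate 3 stood above every WT library and WT replicate 3 below 3 of the KO libraries, so the groups overlapped (log2 fold change -0.58, edgeR FDR 0.547). STX1A, its syntaxin partner, had 22.1, 10.6 and 24.6 CPM in KO1, 15.3 and 13.9 CPM in KO2, and 23.4, 25.5 and 22.5 CPM in WT. Only KO1 replicate 3 reached the WT range (log2 fold change -0.46, edgeR FDR 0.366). VAMP2, the vesicle SNARE synaptobrevin, had 93.2, 79.6 and 116 CPM in KO1, 92.9 and 75.9 CPM in KO2, and 103, 120 and 91.9 CPM in WT. With a 1.57-fold range over 8 libraries it varied least of the 40 genes, also in the libraries with few neuron markers (log2 fold change -0.20, edgeR FDR 0.499). VAMP1, the related synaptobrevin of brainstem and spinal neurons, had 8.49, 10.6 and 9.28 CPM in KO1, 12.4 and 11.2 CPM in KO2, and 9.36, 7.89 and 14.9 CPM in WT. Here WT replicate 3 was the highest library, and the mean difference was small (log2 fold change -0.04, edgeR FDR 0.935). STXBP5, or tomosyn, which competes for SNARE assembly, was the one positive gene of the role, at 0.07.

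Synaptotagmins, the calcium sensors and their relatives, were negative in 8 of 9 cases, with a median log2 fold change of -0.51. SYT1, the sensor of fast release, had 122, 21.2 and 152 CPM in KO1, 82.5 and 48.5 CPM in KO2, and 123, 138 and 88.3 CPM in WT. Low values sat in the 3 high-collagen libraries, and KO1 replicates 1 and 3 were level with WT or above it (log2 fold change -0.45, edgeR FDR 0.65). SYT6, a synaptotagmin outside the fast sensor group, had 26.8, 12.5 and 26.6 CPM in KO1, 13.3 and 17.9 CPM in KO2, and 27.3, 38.3 and 37.7 CPM in WT. All KO libraries were below WT, KO1 replicate 1 only just (log2 fold change -0.83, edgeR FDR 0.247, DESeq2 adjusted p 0.121). SYT3, which binds calcium with high affinity, had 14.5, 3.54 and 17.9 CPM in KO1, 15.6 and 6.59 CPM in KO2, and 18.5, 20.7 and 14.4 CPM in WT, and only the KO1 replicate 2 and KO2 replicate 2 values left the WT range (log2 fold change -0.62, edgeR FDR 0.476). SYT4, a synaptotagmin of dense-core vesicles, was the positive exception and had 69.7, 13 and 58.8 CPM in KO1, 141 and 28.3 CPM in KO2, and 34.4, 89.2 and 51.0 CPM in WT. KO2 replicate 1 was the highest library and KO1 replicate 2 the lowest, a 10.9-fold range (log2 fold change 0.10, edgeR FDR 0.95). The other synaptotagmins (SYT2, SYT5, SYT7, SYT9 and SYT11) ran from -0.89 for SYT7 to -0.22 for SYT5.

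In the active zone group, which includes the RAB3 GTPases, 7 of 8 genes were negative, with a median log2 fold change of -0.55. RIMS3, a short RIM protein, had 93.9, 54.0 and 112 CPM in KO1, 71.4 and 59.9 CPM in KO2, and 157, 134 and 118 CPM in WT. Every KO library was below WT, with means of 78.3 ± 24.4 CPM in KO (SD, n = 5) and 137 ± 19.6 CPM in WT (SD, n = 3), yet the adjusted p-values were 0.243 by edgeR and 0.0672 by DESeq2 (log2 fold change -0.80). RIMS1, the long RIM that links vesicles to calcium channels, had 15.3, 4.99 and 15 CPM in KO1, 14.3 and 5.55 CPM in KO2, and 8.96, 16.7 and 9.71 CPM in WT. Its KO libraries stood on both sides of WT replicates 1 and 3 (log2 fold change -0.10, edgeR FDR 0.919). Of the giant scaffolds, BSN had 74.1, 17.3 and 103 CPM in KO1, 54.6 and 39.0 CPM in KO2, and 77.7, 118 and 82.6 CPM in WT. Only KO1 replicate 3 lay in the WT range (log2 fold change -0.69, edgeR FDR 0.435). PCLO, the second giant scaffold, had 39.3, 26.9 and 56.8 CPM in KO1, 45.6 and 24.9 CPM in KO2, and 40.7, 56.5 and 33.8 CPM in WT, so 3 KO libraries were at or above the lowest WT library (log2 fold change -0.17, edgeR FDR 0.759). RAB3A, the GTPase that RIM proteins bind on vesicles, had 51.7, 12.1 and 73.6 CPM in KO1, 38.2 and 24.3 CPM in KO2, and 61.8, 97.6 and 50.3 CPM in WT. KO1 replicates 1 and 3 were in the WT range and the 3 high-collagen libraries below it (log2 fold change -0.81, edgeR FDR 0.399). RAB3B was the positive gene at 0.02, while RAB3C was at -0.85 and RIMS2 at -0.41.

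The vesicle proteins varied most in direction, with 6 of 9 genes negative. SYN3, a synapsin of developing neurons, had 10.5, 3.03 and 13.7 CPM in KO1, 13.3 and 5.75 CPM in KO2, and 27.6, 29.8 and 21.9 CPM in WT. The highest KO library was well under the lowest WT library. Its means were 9.26 ± 4.71 CPM in KO (SD, n = 5) and 26.4 ± 4.04 CPM in WT (SD, n = 3), and by the authors' deposited table the log2 fold change was -1.51 (SE 0.47, adjusted p 0.0315), with an edgeR FDR of 0.243. SYN1, which tethers vesicles to the cytoskeleton and whose promoter is printed above, had 26.7, 5.72 and 30.6 CPM in KO1, 19.4 and 10.8 CPM in KO2, and 27.2, 43.6 and 20.8 CPM in WT. It was lowest in KO1 replicate 2 and KO2 replicate 2, the libraries with the lowest neuron markers (log2 fold change -0.71, edgeR FDR 0.448). SYP, the vesicle marker synaptophysin, had 68.5, 6 and 75.3 CPM in KO1, 56.5 and 21.5 CPM in KO2, and 65.5, 88.4 and 51.5 CPM in WT. KO1 replicate 2 alone made a 14.7-fold range, and 3 KO libraries lay within WT (log2 fold change -0.59, edgeR FDR 0.63). SYPL1, a widely expressed relative of synaptophysin, went the other way and had 30.4, 65.2 and 28.8 CPM in KO1, 51.2 and 47.3 CPM in KO2, and 40.6, 21.8 and 24.0 CPM in WT. Its 3 highest libraries were the 3 high-collagen ones (log2 fold change 0.63, edgeR FDR 0.327).

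SV2A, the vesicle protein that binds levetiracetam, had 128, 61.8 and 150 CPM in KO1, 137 and 78.3 CPM in KO2, and 138, 178 and 139 CPM in WT. KO1 replicate 3 alone exceeded the lowest WT library (log2 fold change -0.45, edgeR FDR 0.414). SV2B had few counts, with 1.92, 0.561 and 0.499 CPM in KO1, 4.26 and 0.347 CPM in KO2, and 1.38, 0.891 and 0.215 CPM in WT, and its log2 fold change of 0.85 was carried by KO2 replicate 1 (edgeR FDR 0.617). SNCB, or beta-synuclein, had 9.55, 0.505 and 4.41 CPM in KO1, 2.82 and 4.46 CPM in KO2, and 13.8, 7.75 and 2.74 CPM in WT. This 27.4-fold range was the widest of the 40 genes, with KO1 replicate 2 at the low end, and the WT libraries alone ranged 5.05-fold (log2 fold change -0.90, edgeR FDR 0.522). SYN2 and SV2C were close to 0, at 0.00 and -0.03.

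All 3 genes of vesicle retrieval were negative. DNM1, the dynamin that pinches off endocytic vesicles in neurons, had 112, 126 and 128 CPM in KO1, 138 and 131 CPM in KO2, and 160, 170 and 202 CPM in WT. The 5 KO libraries lay close together, at 127 ± 9.69 CPM in KO (SD, n = 5) and 177 ± 21.9 CPM in WT (SD, n = 3). By the authors' deposited table its log2 fold change was -0.47 (SE 0.14, adjusted p 0.0192), with an edgeR FDR of 0.243. The clathrin adaptor SNAP91 was at -0.64 and AMPH, which brings dynamin to the neck of the bud, at -0.21. Both neurexins were negative. NRXN3 had 37.4, 16.2 and 51.8 CPM in KO1, 26.1 and 21.2 CPM in KO2, and 29.6, 71.3 and 70.9 CPM in WT, where WT replicate 1 lay among the KO libraries (log2 fold change -0.91, edgeR FDR 0.292). NRXN2 had 109, 74.5 and 135 CPM in KO1, 115 and 89.3 CPM in KO2, and 159, 213 and 122 CPM in WT, and only KO1 replicate 3 crossed the lowest WT library (log2 fold change -0.65, edgeR FDR 0.248, unadjusted p 0.0233).

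**Figure D3:**
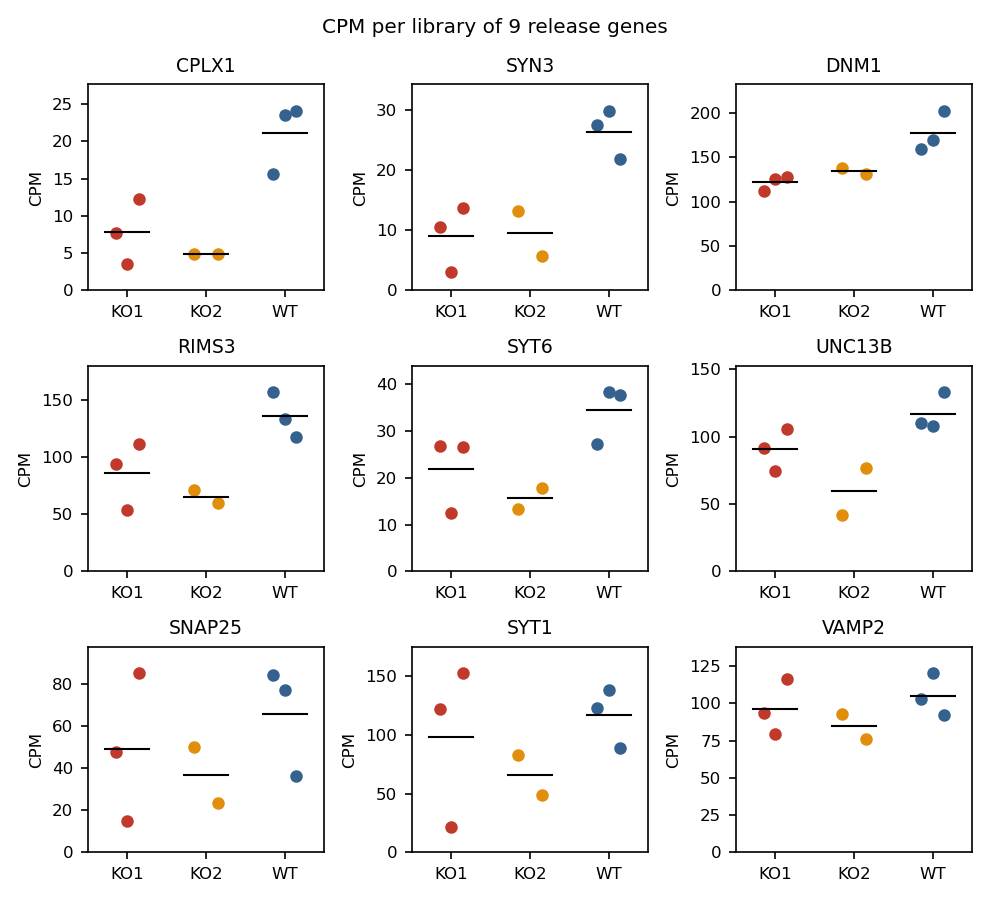
CPM per library (points) and group mean (bars) of 9 release genes in KO1, KO2 and WT, each with its own axis from 0. CPLX1, SYN3, DNM1, RIMS3, SYT6 and UNC13B have every KO point below every WT point, whereas the KO1 points of SNAP25, SYT1 and VAMP2 reach into or above the WT range.

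Without the 3 high-collagen libraries the genes divided. In KO1 replicates 1 and 3 against WT, 25 of 40 genes were negative with a median log2 fold change of -0.09, and of the genes with values above SNAP25 (0.01), SYT1 (0.24), SYP (0.07), PCLO (0.14) and RIMS1 (0.36) took the opposite sign. CPLX1 stayed at -1.08 and SYN3 at -1.13 by DESeq2, with adjusted p-values of 0.0501 and 0.000992, and DNM1 at -0.56 with 0.0611. RIMS3 was at -0.402, SYT6 at -0.365, NRXN2 at -0.426 and NRXN3 at -0.358 by edgeR. With all KO libraries they were at -0.803, -0.826, -0.652 and -0.907. By edgeR, SYT2 was the lowest of the 40 at -1.20 (FDR 0.65), with WT libraries from 4.82 to 20.4 CPM. RAB3C was at -0.59 (edgeR FDR 0.736). Both are given after their values were seen. SYN3 was the 1 member DESeq2 called there, where it called 0.539% of all genes lower and 0.853% higher, while edgeR called none and had 4 members lower and 0 higher at an unadjusted p under 0.05 (10% and 0%, beside 3.82% and 4.47% of all genes). Both of these KO1 libraries lay below all WT libraries for the same 6 genes as above, 15% of the members against 12.5% of all genes. Those 6 recur by construction, since the rule above already needed both libraries below WT, and no further member joined them. Both KO1 libraries lay above all WT libraries for SYT5 alone, 2.5% against 13.6%. SYT5, another vesicle synaptotagmin, had 51.9 and 50.4 CPM there and 34.3, 46.9 and 29.7 CPM in WT, and was named after its values were seen.

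**Figure D4:**
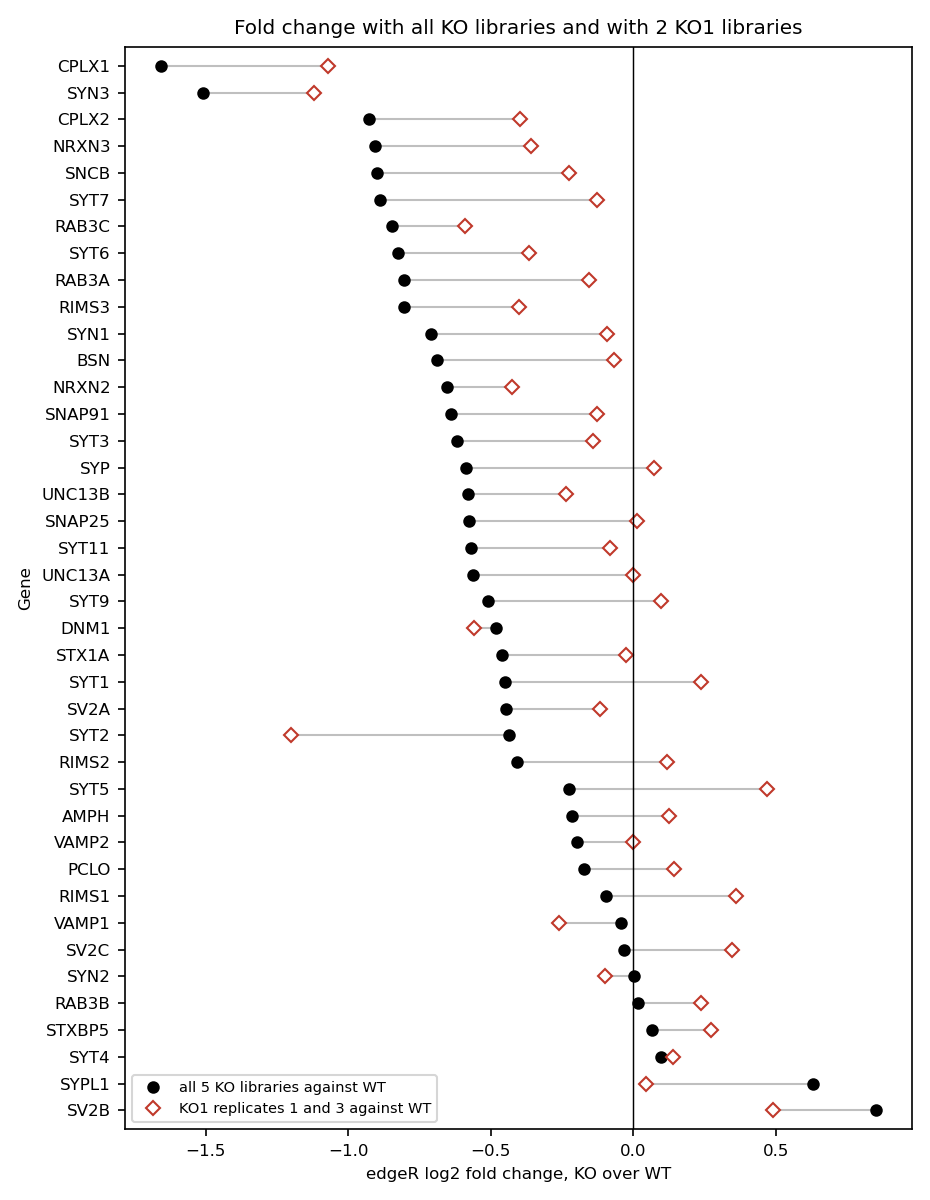
edgeR log2 fold change (KO over WT) of each of the 40 genes, with all 5 KO libraries (black) and with KO1 replicates 1 and 3 only (red diamonds). Most diamonds lie right of their black point and near 0, while CPLX1, SYN3 and DNM1 stay at -1.07, -1.12 and -0.56. The diamonds of SYT2 (-1.20) and RAB3C (-0.59) are also low. Those of SYT2, DNM1, VAMP1, SYN2, SYPL1 and SV2B lie left of their black points.

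The lines were also set against WT separately, with the WT libraries shared. In KO1, 36 of 40 genes were negative with a median of -0.44, and edgeR called 0 (0% of all genes) with 4 lower and 0 higher at an unadjusted p under 0.05 (10% and 0%, beside 2.44% and 5.62% of all genes). DESeq2 also called 0 members there, beside 0.211% of all genes lower and 0.674% higher. In KO2, 34 were negative with a median of -0.69, and edgeR called 0 (0% of all genes) with 5 lower and 0 higher at an unadjusted p under 0.05 (12.5% and 0%, beside 7.78% and 10.6% of all genes). CPLX1 was the 1 member DESeq2 called in KO2, with an adjusted p of 0.00407, beside 0.993% of all genes lower and 3.26% higher. The edgeR count for KO2 depended on KO1, whose libraries share the spread estimate: with KO2 and WT libraries alone it was 6 (SYT6, SYT7, SYT9, STX1A, CPLX1 and RIMS3, all lower, where 3.67% of all genes were called lower), and without KO1 replicate 2 it was 8 (adding SYN3 and BSN, where 6.25% of all genes were called lower). Between KO2 and KO1 themselves, edgeR called 0 members (0% of all genes), 0 at an unadjusted p under 0.05, and DESeq2 0 (0.0257% of all genes lower and 0.0206% higher). Without KO1 replicate 2, edgeR called SYT7 and SYT9 lower in KO2 than in KO1, 2 members beside 1.19% of all genes called lower. Both KO2 libraries are high-collagen, whereas WT and KO1 replicates 1 and 3 are not. In that fit, and in KO2 against WT, line and collagen level therefore cannot be told apart. SYT7, a high-affinity calcium sensor of slower release, had 33.2, 4.66 and 33.1 CPM in KO1, 14.2 and 12.4 CPM in KO2, and 37.8, 44.1 and 26.8 CPM in WT. Both KO2 libraries were below WT, and KO1 replicate 2 was lower still. SYT9, a calcium sensor related to SYT1, had 15.7, 4.77 and 13.5 CPM in KO1, 7.48 and 6.49 CPM in KO2, and 15, 13.7 and 12.4 CPM in WT, in the same order of libraries at the low end. These 2 genes were named after their values were seen.

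Of 70 other genes of the release and vesicle cycle, 68 were tested, of which 42 were negative with a median log2 fold change of -0.16 in KO against WT. edgeR called 0 of them, with 7 higher and 6 lower at an unadjusted p under 0.05 (10.3% and 8.82%, beside 11.5% and 6.45% of all genes), while 3 rose and 2 fell by DESeq2 (4.41% and 2.94%, beside 5.23% and 1.24%). These shares lie near those of all genes, and the genes behind them are given by their values. SNAP23, the widely expressed relative of SNAP25, had 27, 64.8 and 28.3 CPM in KO1, 44.7 and 49.2 CPM in KO2, and 16.9, 20.2 and 22.3 CPM in WT (log2 fold change 1.13, DESeq2 adjusted p 0.0274). VAMP3, the widely expressed relative of VAMP2, had 37.9, 55.8 and 26.3 CPM in KO1, 56.7 and 47.9 CPM in KO2, and 19.3, 18.5 and 22.6 CPM in WT (log2 fold change 1.17, DESeq2 adjusted p 0.00476). Both were above WT in every KO library and highest in the 3 high-collagen ones. CADPS2, a priming factor of dense-core vesicles, had 26.9, 57.0 and 7.69 CPM in KO1, 12.9 and 27.9 CPM in KO2, and 4.38, 5.07 and 8.42 CPM in WT (DESeq2 adjusted p 0.0134), with KO1 replicate 3 inside the WT range. On the lower side, PRRT2, a SNARE-binding protein mutated in paroxysmal dyskinesia, had 67.8, 49.6 and 78.5 CPM in KO1, 74.9 and 57.0 CPM in KO2, and 121, 99.9 and 135 CPM in WT (log2 fold change -0.84, DESeq2 adjusted p 0.00273). DOC2B, a calcium sensor of spontaneous release, had 10.8, 3.98 and 9.63 CPM in KO1, 13.3 and 4.61 CPM in KO2, and 16.0, 49.1 and 18.1 CPM in WT (DESeq2 adjusted p 0.0291). Its relative DOC2A lay below WT in every KO library too, and DESeq2 called it in KO2 alone (adjusted p 0.0492). ERC2 and PPFIA3, both active zone scaffolds, were also below WT in all 5 KO libraries, and PPFIA1, SYNGR2, RAB3GAP1 and SYAP1 above, so that 5 of 68 lay below (7.4%, against 6.16% of all genes) and 6 above (8.8%, against 6.29%).

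H3K27me3 peaks reached within 2 kb of a start site in 15 of the 40 genes in the KO list (37.5%, against 16% of all genes tested that had a position) and in 11 in the WT list (27.5%, against 15.4%). Each mark had 1 deposited list per genotype, the labels name the KO list for both KO lines, and no peak comparison has a replicate. The 11 genes of the WT list were all in the KO list: SYT2, SYT5, SYT6, SYT7, SYN2, SYN3, SV2B, SV2C, CPLX1, UNC13A and SNCB. CPLX2, SYT3, NRXN2 and NRXN3 had a peak only in the KO list, 10% of the members against 2.47% of all genes, and 0 members had one only in the WT list, against 1.93%. Widening the window to 5 kb left these counts as they were. The KO list was called from 37.6 M tags with a control of 45.7 M and covered 16.68 Mb, and the WT list from 22.4 M tags with a control of 23 M and covered 14.61 Mb. The part of this difference in tags in the 4 further genes of the KO list was not tested.

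In the KO list, the strongest peak of the 4 genes marked there alone had a -log10 q of 6.2 to 14.1, against 8.8 to 50.4 for the 11 shared genes. At CPLX2 a peak of 500 bp, chr5:175796191-175796690, covered the whole promoter window printed above, with its summit 84 bp before the start site and a -log10 q of 6.2. Over the CPLX2 span there were 4 peaks in the KO list and 1 of 1.14 kb in the WT list, more than 2 kb from the start site. NRXN2 had 1 peak of 1255 bp, chr11:64721531-64722785, with a -log10 q of 14.1, and over its span 6 peaks in the KO list and 2 in the WT list. At SYT3 a peak of 992 bp, chr19:50638141-50639132 (-log10 q 9.0), reached 55 bp into the printed window, and a smaller one lay downstream, while the WT list had no peak anywhere in the gene. The printed SYT3 start site is the furthest downstream of 3, and no peak came within 2 kb of the first, at chr19:50658105. NRXN3 had peaks of 303 and 430 bp to either side of its printed start site (-log10 q 6.4 and 4.3), neither of them inside the window. That start site is the furthest downstream of the 3 used for NRXN3, the first being at chr14:78170373. The other NRXN3 start sites had no peak within 2 kb. RNA counts are per gene and do not separate start sites. The median log2 fold change of these 4 genes was -0.78, beside -0.26 for all genes with a peak only in the KO list. For the 11 genes marked in both lists it was -0.56, beside 0.28 for all such genes, and for the 25 unmarked members -0.46, beside -0.01.

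Among the 11 genes with peaks in both lists, the summed peak length was greater in the KO list for 5 and smaller for 6, and it was over 1.5 times greater for SYT6, UNC13A and SYN3 and over 1.5 times smaller for 0. SYT6 had 2826 bp in the KO list and 792 bp in the WT list, and the printed SYT6 window was fully inside a KO peak and outside the WT peak. That window was chosen as the nearest to the KO peak summit. At the SYT6 start site furthest upstream, the window chr1:114153870-114154119 had 250 bp under KO peaks and 165 bp under the WT peak. UNC13A had 3198 bp in the KO list and 1797 bp in the WT list, where the nearer peak, chr19:17686902-17688286, stopped short of the start site and left the printed window free. SYN3 had 1816 bp in the KO list and 1000 bp in the WT list, with -log10 q values of 25.0 and 8.1. Over its whole span the order was the reverse, with 2 peaks over 2.31 kb in the KO list and 3 over 2.69 kb in the WT list. CPLX1, the gene with the largest fold change, had nearly equal lengths of 7256 bp in the KO list and 7258 bp in the WT list over both ends of its span, and its strongest peak had a -log10 q of 40.3 in the KO list and 55.3 in the WT list. DNM1, RIMS3 and UNC13B, which also had every KO library below WT, had no H3K27me3 peak near a start site in either list. SYN1 had none either. The only start site used for RIMS3, chr1:40665682 (-), lies inside its span, which runs upstream to chr1:40692066. Neither list had an H3K27me3 peak within that span.

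**Figure D5:**
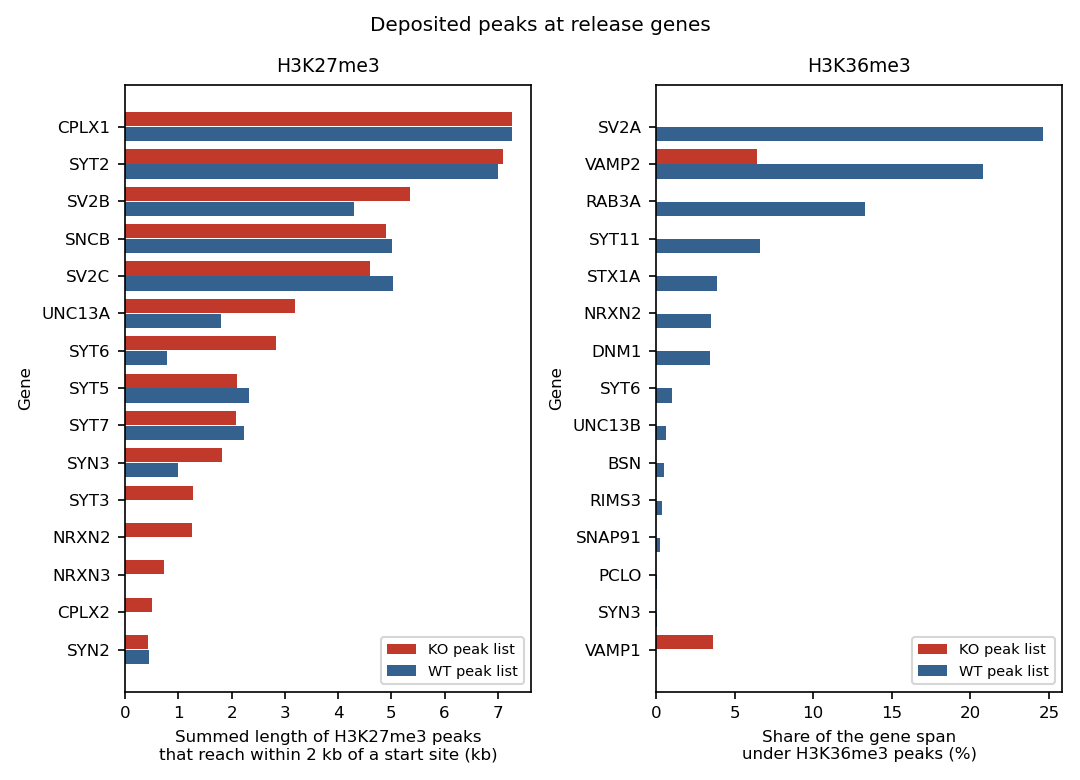
Left, summed length (kb) of the H3K27me3 peaks that reach within 2 kb of a start site, for the 15 genes with any; right, share (%) of the gene span under H3K36me3 peaks, for the 15 genes with any; KO list in red above WT list in blue. SYT3, NRXN2, NRXN3 and CPLX2 have H3K27me3 bars in the KO list only, and most H3K36me3 bars are in the WT list only.

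H3K36me3 peaks lay over 2 of the 40 genes in the KO list (5%, against 23.7% of all genes) and over 14 in the WT list (35%, against 43.6%). In all, 13 genes had peaks only in the WT list, 32.5% of the members against 22.5% of all genes, and VAMP1 alone had one only in the KO list (2.5% against 2.61%). SV2A had 9 peaks over 24.6% of its span in the WT list and none in the KO list. VAMP2, the least variable gene in RNA, was the one gene in both lists, with 6.42% of its span in the KO list and 20.8% in the WT list. RAB3A had 13.3%, SYT11 6.62% and DNM1 3.43% of the span in the WT list and none in the KO list. NRXN2 had 10 peaks in the WT list. The KO list was short for the whole genome, with 8937 peaks over 2.64 Mb from 44.3 M tags, against 30144 peaks over 14.51 Mb from 22.5 M tags in the WT list, so the members' lower count in the KO list cannot be told apart from the shortness of that list.

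Some members share their locus with other genes. TIMP1 lies inside SYN1, TIMP4 inside SYN2 and TIMP3 inside SYN3, and antisense RNAs overlap SNAP25, SYP and NRXN2 among others. Other protein-coding genes overlap part of DNM1 (CIZ1), RIMS3 (NFYC), RAB3A (MPV17L2), BSN (APEH), VAMP1 (TAPBPL), SYT3 (C19orf81), SYT2 (PPP1R12B) and SYN1 (ARAF). No source used here says whether the counting used strand, and the values of these genes are uncertain to that extent.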

How the data were processed

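Per the submitters' processing notes, the authors used Salmon 1.1.0, DESeq2 1.26.0, Bowtie2 2.4.1, MACS2 2.2.7.1 and GRCh38. The deposited RNA table holds the authors' estimated counts per gene symbol, with no normalization. For KO against WT, a table the authors deposited holds the log2 fold change and its standard error, the Wald statistic as a score, and the p-value before and after adjustment. Narrow peaks have a q threshold of 0.01 and rest on 1 ChIP and 1 control alignment each, per the file headers. Each deposited peak carries the authors' own pileup signal, fold ratio over the control and -log10 q. The control samples are named input, but normal rabbit IgG is their antibody label.

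Estimated counts were rounded and tested over all genes with edgeR 4.0.16 (R 4.3.3): filterByExpr, TMM, quasi-likelihood F-test, Benjamini-Hochberg adjustment, FDR 0.05. KO against WT pooled the libraries of both lines with no term for line, and a fit with 3 groups gave each line. WT was 1 line, so genotype and line cannot be told apart. DESeq2 1.42.0 was the second tool, and its fold changes for the members differed from the authors' by at most 5.2e-06. The scripts were tested on simulated data. CPM are TMM-scaled, on the log2 scale without pseudocount in the heat map. With totals of 17.4 to 31.5 M, low genes such as SV2B are measured less precisely. Peaks were assigned at an overlap of at least 1 bp, H3K27me3 within 2 kb of a RefSeq start site (either end of the gene for 6 members) and H3K36me3 over the gene span, for 15734 tested genes with a position, and 2880 had none. Coordinates are 1-based, from the peak lists (GRCh38) and RefSeq tables (GRCh38.p14). The printed window of a gene with several start sites is the one nearest the summit of its strongest KO peak.

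The members, the other gene lists and the tests were chosen with earlier results of these data known, so no p is given over a list. Values per library are given for members of each role, members called at the main settings of any test, members whose groups do not overlap, the 3 largest fold changes in each direction and genes with an H3K27me3 peak in 1 list only. Genes named outside this rule are said to be so. Alternatives were other scaling and filters, DESeq2, a robust fit, a replicate block, each library left out, the fit of the compared lines alone and other peak thresholds and windows. Leaving out the 3 high-collagen libraries was added after seeing the data.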

Additional observations from a re-analysis of the deposited data

Results flagged for a closer look

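VAMP1, the synaptobrevin of brainstem and spinal neurons, was flagged because its lines moved in opposite directions from WT: the log2 fold change was -0.18 in KO1 and 0.14 in KO2, a difference of 0.318. The KO1 libraries had 8.49, 10.6 and 9.28 CPM and the KO2 libraries 12.4 and 11.2 CPM, on opposite sides of the WT mean of 10.7 CPM. The WT libraries, at 9.36, 7.89 and 14.9 CPM, enclosed every KO value. In KO2 against KO1 the edgeR p was 0.322 before adjustment. No sample stood far enough from the others of the KO group to be flagged in any of the 27 members that the rule for named genes holds.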

How the results depend on the processing

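In KO against WT, edgeR called 0 members under every scaling, filter and left-out library, and DESeq2 called 3 (1.24% of all genes lower). By DESeq2 that count ran from 0 to 7 with each library left out, and the share of all genes called lower ran from 0.321% to 4.37%: it was 0 without WT replicate 2 (0.531%) or WT replicate 3 (0.321%), 1 without KO2 replicate 2 (0.52%), 7 without KO1 replicate 3 (4.37%; adding SYT6, RIMS3, NRXN2 and NRXN3) and 1 without the 3 high-collagen libraries (0.539%). The median log2 fold change of -0.54 ran from -0.729 without KO1 replicate 3 to -0.345 without KO1 replicate 2. In KO2 against WT the count of members was 1 by DESeq2 and by edgeR 6 with KO2 and WT alone, with a range of 0 to 8 over left-out libraries, the highest without KO1 replicate 2. In KO2 against KO1 the left-out range was 0 to 2. Replicate numbers did not pair the samples (correlations of same-numbered libraries from -0.32 to 0.27), and with a replicate block edgeR called 0 members and DESeq2 2 (SYN3 and CPLX1; 0.972% of all genes lower), with a median log2 fold change of -0.625.

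Of 27 named members, 19 kept their sign under all 16 alternatives. The block reversed SYT4 (-0.381) and VAMP1 (0.035), and leaving out the 3 high-collagen libraries reversed SNAP25 (0.013), SYT1 (0.236), SYP (0.072), PCLO (0.141) and RIMS1 (0.359). Over left-out libraries the log2 fold change ran from -0.455 to 0.538 for SYT4, -0.013 to 1.405 for SV2B, -0.227 to 0.263 for VAMP1, -0.355 to 0.053 for PCLO and -0.264 to 0.238 for RIMS1. The cause was not tested.

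H3K27me3 counts stayed within 1.5 times under every alternative. H3K36me3 members in the KO list numbered 0 at a -log10 q of at least 5, 1 without the first 2 kb of the span and 1 at 5% or more of the span, and in the WT list 9 at a -log10 q of at least 5 and 4 at 5% or more. Library depth limits SV2B and SNCB most, and the histone marks have 1 list per genotype and no replicate.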
